A study of Homo sapiens with 6 samples.

Results

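The miRNAs described here are miR-192, miR-194, miR-215 and miR-375, 4 miRNAs of the gut epithelium, in exosomes released by HCT116 cells. HCT116 is an established human colorectal cancer line, and exosomes are small vesicles that cells shed into their medium. Every entry that carries these names in the deposited count tables was taken, which gave 7 of 2575 listed entries: both arms of miR-192, miR-194 and miR-215, and miR-375 with no arm named. The 3 that were abundant enough to test are listed as hsa-miR-192-5p, hsa-miR-194-5p and hsa-miR-375, and the species prefix is dropped below. The cells, at passage 16 to 19 and grown in 1640 medium, were kept for 6 h together with ETBF, the enterotoxigenic form of the gut bacterium Bacteroides fragilis, at a multiplicity of infection of 500, or had received bacterial medium without ETBF. Sample titles name 3 libraries as untreated and 3 as treated by ETBF, all from this 1 cell line, and whether replicates came from separate cultures is not stated, so that the spread behind each p-value is that of the libraries and may be technical. The names of the deposited files give the opposite group to the titles in 6 of 6 libraries. Groups here follow the titles, and should the file names be the correct ones, each direction given here is reversed while sizes, errors and p-values stand.

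As background, a miRNA is cut from a hairpin precursor into a short strand that guides repression of messenger RNAs paired to its seed, bases 2 to 8. miR-192 and miR-215 share a seed and therefore much of their target range, and each is transcribed together with a copy of miR-194. All of them are enriched in the intestinal epithelium, are known to respond to p53, and are also abundant in liver and kidney. miR-375 marks pancreatic islets and secretory cells of the gut, where it restrains hormone release and growth genes.

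The mature strands that the results turn on are shown to let the shared seed be seen, with the seed in capitals, 5′ to 3′, as RefSeq gives them on GRCh38.p14.
miR-192-5p: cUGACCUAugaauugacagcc
miR-215-5p: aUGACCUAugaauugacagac
miR-194-5p: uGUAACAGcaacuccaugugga
miR-375-3p: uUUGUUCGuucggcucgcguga
Counted from 1 at the 5′ end, with the base of miR-192-5p first, miR-192-5p and miR-215-5p differ by C1A and C20A and are identical at the other 19 of 21 positions, the whole seed included. No other mature human miRNA of that table has the seed UGACCUA, and the seeds of miR-194-5p and miR-375-3p are each found in a single mature miRNA. The deposited entry miR-375 names no arm, and the 3p strand is printed because older miRBase releases used the plain name for it.

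The genes lie at 3 places, all on the minus strand. MIR192 (chr11:64891137-64891246) and MIR194-2 (chr11:64891355-64891439) are 108 bases apart, both inside an exon of the long non-coding host gene MIR194-2HG in GENCODE release 29. MIR215 (chr1:220117853-220117962) and MIR194-1 (chr1:220118157-220118241) are likewise close together, in an intron of IARS2, a gene transcribed from the opposite strand. MIR375 (chr2:219001645-219001708) is intergenic. These positions are on GRCh38, whereas the submitters' processing notes name GRCh37.p5, so they locate the genes and were not used to count reads. The 2 hairpins of miR-194 are shown because they carry the same mature 5p strand in different surroundings, with the annotated mature strands in capitals.
MIR194-1: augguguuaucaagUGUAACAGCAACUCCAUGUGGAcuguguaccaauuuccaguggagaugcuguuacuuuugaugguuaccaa
MIR194-2: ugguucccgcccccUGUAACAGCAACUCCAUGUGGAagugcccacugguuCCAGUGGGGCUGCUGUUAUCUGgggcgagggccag
A read of the 22-base 5p strand alone can come from either locus, while RefSeq annotates the 3p strand at MIR194-2 alone.

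miR-192-5p was the most abundant of the 7 entries, followed by miR-194-5p and, far below, miR-375. The 3 untreated-titled libraries held 2145, 3692 and 3484 counts of miR-192-5p, and the 3 ETBF-titled libraries held 2730, 1837 and 2645. It stood 13th or 14th among all entries in each of the 6 libraries. miR-194-5p held 1348, 2351 and 1981 counts in the untreated-titled libraries and 1729, 1080 and 1667 in the ETBF-titled libraries, with ranks from 18 to 23. miR-375 held 75, 199 and 156 counts in the untreated-titled libraries and 105, 67 and 92 in the ETBF-titled libraries, with ranks from 80 to 104. Raw counts of the groups overlap for all 3, in libraries whose totals ranged from 200207 to 417321. The order miR-192-5p, miR-194-5p, miR-375 was the same in 6 of 6 libraries.

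The other 4 entries were at or near the floor of detection, taken as 3 counts. miR-215-5p, which carries the same seed as miR-192-5p, held 3, 5 and 7 counts in the untreated-titled libraries and 1, 6 and 2 in the ETBF-titled libraries. The other strand of the MIR194-2 hairpin, miR-194-3p, held 4, 9 and 6 against 3, 3 and 4. miR-192-3p had 1 count in untreated-titled replicate 1, 1 in ETBF-titled replicate 1 and 0 in the other 4 libraries. miR-215-3p had 0 of 1752302 counts, which allows up to 1.71 counts per 1000000. Only 3 of the 7 entries therefore had enough counts to be tested between the groups.

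**Figure D1:**
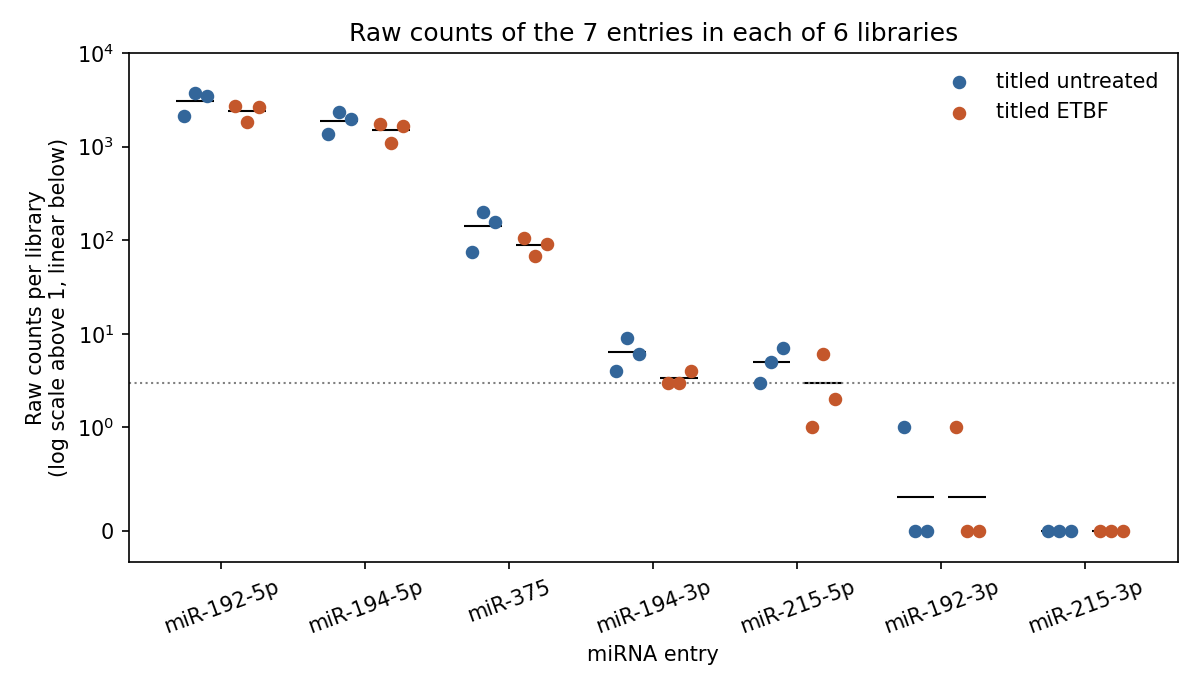
Raw counts (vertical axis, logarithmic above 1 and linear below) of the 7 entries in each library, with blue points for untreated-titled, orange points for ETBF-titled, a short line at each group's mean and a dotted line at 3 counts. miR-192-5p and miR-194-5p lie between 1080 and 3692 counts in every library, miR-375 between 67 and 199, and the other 4 entries at 9 counts or fewer.

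Together the 7 entries made up 1.06% to 1.92% of the counts of a library. Their share was 1.80% ± 0.113 in the untreated-titled libraries and 1.41% ± 0.388 in the ETBF-titled libraries (SD, n = 3, exact permutation test, two-sided, p = 0.3, where 0.1 is the smallest p this design allows). The groups overlapped, because ETBF-titled replicate 1 at 1.82% lay above untreated-titled replicates 1 and 2 at 1.79% and 1.70%. Within that share, miR-192-5p took 59.0% to 61.8% in every library.

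Neighbours in abundance show where these levels sit. Counts per 1000000 (CPM) are given here relative to a library size scaled by the trimmed mean of M-values (TMM), which corrects for a few entries taking up much of a library. Over the 6 libraries miR-192-5p averaged 9577 ± 1212 CPM (SD, n = 6), between miR-203a, a miRNA of stratified epithelium, at 11925 ± 1679 CPM and miR-27b-3p at 7874 ± 803 CPM. miR-194-5p averaged 5876 ± 719 CPM, next to the epithelial miR-200b-3p at 5846 ± 256 CPM. The level and rank of miR-194-5p would be lower had its reads been counted at both of its loci, which was not determined. miR-375 averaged 392 ± 108 CPM, next to miR-19b-3p at 385 ± 38.4 CPM. None of these neighbours is separated from the member beside it by more than the range over libraries. All these mature strands are of nearly equal length, 21 or 22 bases for the tested members, so no correction for length was made.

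miR-215-5p was a trace beside miR-192-5p in this material. Over all libraries it held 24 of the 16557 counts in the 2 entries with the seed UGACCUA, which is 0.145% (95% Clopper-Pearson interval 0.0929% to 0.216%). The share was 0.161% (0.0900% to 0.265%) in the summed untreated-titled libraries and 0.125% (0.0570% to 0.236%) in the summed ETBF-titled libraries, and these intervals, which cover counting error only, overlap. Summed over a group, miR-192-5p exceeded miR-215-5p 621-fold in the untreated-titled and 801-fold in the ETBF-titled libraries. With 0.5 added to each count, the log2 ratio in single libraries averaged 9.17 ± 0.28 in the untreated-titled and 9.67 ± 1.38 in the ETBF-titled libraries (SD, n = 3, exact permutation test, p = 0.6, or 0.75 adjusted over the 5 ratios). A difference in this ratio was not detectable at 1 to 7 counts of miR-215-5p per library. Without ETBF-titled replicate 1, which held a single count of miR-215-5p, the difference of 0.50 on the log2 scale became -0.075, and without ETBF-titled replicate 2, which held 6, it became 1.27. The sequences differ at 2 positions, and whether miscalled miR-192-5p reads contribute to the miR-215-5p counts was not tested.

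miR-192-5p and its cluster partner miR-194-5p kept nearly the same proportion throughout. The ratio of their counts was 1.59, 1.57 and 1.76 in the untreated-titled libraries and 1.58, 1.70 and 1.59 in the ETBF-titled libraries. Its log2 value averaged 0.71 ± 0.089 and 0.70 ± 0.060 (SD, n = 3), a difference of -0.015 (exact permutation test, p = 0.8, or 0.8 adjusted over the 5 ratios). That difference is smaller than the spread within either group, the groups overlap, and its sign turned when untreated-titled replicate 3 (0.036), ETBF-titled replicate 1 (0.0042) or ETBF-titled replicate 3 (0.00071) was left out. The ratio itself depends on how reads from the MIR194-1 and MIR194-2 copies were counted. miR-199a-3p, which also has more than 1 locus, held 2 to 2.002 times the counts of the identical miR-199b-3p in these tables, so reads can be counted at more than 1 place. Had each miR-194-5p read been counted at both loci, the ratio would be 3.28 in the untreated-titled and 3.24 in the ETBF-titled libraries, with the same difference between groups. A table that counts every read at both loci holds even numbers alone, but the miR-194-5p counts were even in 2 and odd in 4 libraries. An odd count does not tell how many reads were counted at both loci. miR-199a-3p also held an odd count, 1903, in untreated-titled replicate 3, where it had 2.001 times the counts of miR-199b-3p. Among values of at least 10 counts, 64.1% of 153 were even for 27 miRNAs with 2 loci and 50.8% of 852 for 180 miRNAs with a single locus. How many miR-194-5p reads were counted at both loci was not determined.

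The 5p entries of miR-192 and miR-194 held nearly all the counts of their 2 arms. miR-194-3p made up 0.285% of the counts of both miR-194 arms over all libraries (29 of 10185, 95% Clopper-Pearson interval 0.191% to 0.409%). The share was 0.333% (0.201% to 0.520%) in the untreated-titled and 0.223% (0.107% to 0.410%) in the ETBF-titled libraries, with overlapping intervals that cover counting error only. In single libraries it was 0.296%, 0.381% and 0.302% against 0.173%, 0.277% and 0.239%. These values do not overlap, but they rest on 3 to 9 counts of miR-194-3p per library, and the difference was not tested. miR-192-3p made up 0.0121% of the counts of both miR-192 arms (2 of 16535, interval 0.00146% to 0.0437%). The miR-194 share is not that of a single hairpin, since the 5p entry can hold reads of MIR194-1 and MIR194-2 and the 3p strand is annotated at MIR194-2 alone, and it would be larger if miR-194-5p reads had been counted at both loci. In both miRNAs the 5p strand is the guide strand known to be loaded into Argonaute.

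Between the titled groups, the CPM values of miR-375, miR-192-5p and miR-194-5p were each lower in all 3 ETBF-titled libraries than in any untreated-titled library. miR-375 fell and passed the test across all entries, while miR-192-5p and miR-194-5p did not pass. Of the 195 entries with enough counts to be tested, 28 passed (14.4%), with 21 up and 7 down (3.59%) in the ETBF-titled group, by edgeR's quasi-likelihood F-test with Benjamini-Hochberg adjustment at 0.05. Of the 3 tested members 1 passed, in the lower direction. All 3 had an unadjusted p under 0.05, where 33.8% of the tested entries fell under that limit and 12.8% did so in the lower direction. The unadjusted edgeR p was 0.00903 for miR-192-5p, 0.0124 for miR-194-5p and 0.00600 for miR-375. Groups of libraries did not overlap in 39.0% of the tested entries, and did not overlap with the ETBF-titled libraries lower in 19.5%. The 3 tested members had a median log2 fold change of -0.31, against -0.03 over all tested entries. The members with few counts, among them miR-215-5p, are not part of that median. miR-192-5p and miR-194-5p are cluster partners that kept nearly the same ratio, so the 3 tested members are not independent of each other.

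miR-192-5p, which represses the transcription factor ZEB2, stood at 10435, 10197 and 11158 CPM in the untreated-titled libraries. In the ETBF-titled libraries it stood at 9194, 8287 and 8192 CPM. The highest ETBF-titled value, that of replicate 1, lies below the lowest untreated-titled value, that of replicate 2. The means were 10597 ± 500.1 and 8558 ± 552.9 CPM (SD, n = 3), a log2 fold change of -0.31 (SE 0.093, 95% interval -0.52 to -0.098, edgeR adjusted p = 0.0587). It passed in 2 of 18 settings, by DESeq2's Wald test (-0.30, adjusted p = 0.0454) and without ETBF-titled replicate 1 (-0.39, edgeR adjusted p = 0.0130), with adjusted p from 0.0130 to 0.871 over all settings. As a share of all counts, with no TMM scaling, the groups overlapped, at 1.00% to 1.19% in the untreated-titled and 0.634% to 1.09% in the ETBF-titled libraries.

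miR-194-5p, a repressor of the adhesion gene CDH2 (N-cadherin), stood at 6558, 6493 and 6344 CPM in the untreated-titled libraries. In the ETBF-titled libraries it stood at 5823, 4872 and 5163 CPM, again with replicate 1 nearest to the untreated-titled libraries. The means were 6465 ± 109.7 and 5286 ± 487.1 CPM (SD, n = 3), and the log2 fold change was -0.29 (SE 0.093, 95% interval -0.50 to -0.080, edgeR adjusted p = 0.0666). It passed in 1 of 18 settings, without ETBF-titled replicate 1 (-0.40, edgeR adjusted p = 0.00892), with adjusted p up to 0.897. As a share of all counts the groups overlapped, at 0.637% to 0.675% and 0.399% to 0.690%.

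miR-375, which represses the growth regulator YAP1, stood at 364.9, 549.6 and 499.6 CPM in the untreated-titled libraries. In the ETBF-titled libraries it stood at 353.6, 302.3 and 284.9 CPM. The lowest untreated-titled value and the highest ETBF-titled value, both of replicate 1, lie close together in libraries where 1 count is worth 4.86 and 3.37 CPM. The means were 471.4 ± 95.6 and 313.6 ± 35.7 CPM (SD, n = 3), 1.52-fold lower in the ETBF-titled libraries, and the log2 fold change was -0.61 (SE 0.17, 95% interval -0.99 to -0.22, edgeR adjusted p = 0.0432). This call held in 9 of 18 settings, with a negative sign in all 18 and adjusted p from 0.000724 to 0.163. It was lost without untreated-titled replicate 2 (-0.48), untreated-titled replicate 3 (-0.62), ETBF-titled replicate 2 (-0.55) or ETBF-titled replicate 3 (-0.54), and with library size alone, DESeq2, limma-voom, scaling on liver and muscle markers or scaling without miR-148a-3p, the most abundant entry. Shares of all counts overlapped, at 0.0375% to 0.0539% in the untreated-titled and 0.0220% to 0.0419% in the ETBF-titled libraries.

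**Figure D2:**
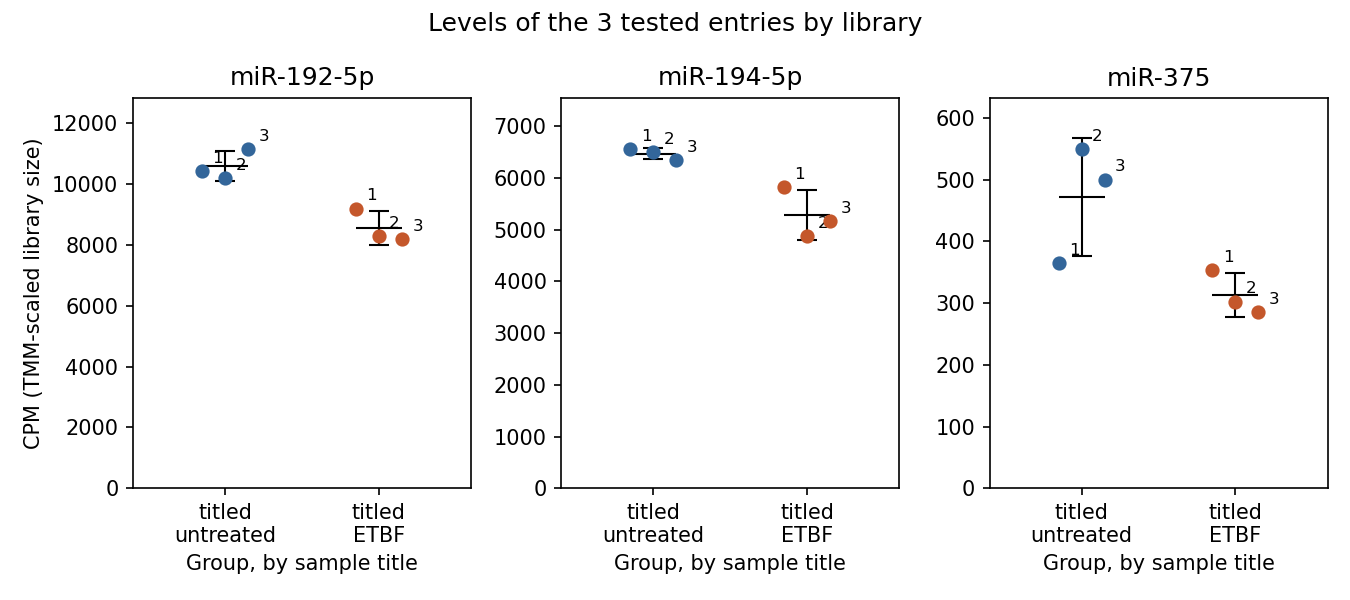
CPM relative to the TMM-scaled library size (vertical axes, from 0) of the 3 tested entries, with blue points for untreated-titled and orange points for ETBF-titled libraries, numbered by replicate, and bars for the mean ± SD (n = 3). ETBF-titled replicate 1 is the highest of its group in each panel, and for miR-375 it lies close to untreated-titled replicate 1 (353.6 and 364.9 CPM).

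Ratios within a library need no scaling, and none of the 5 tested separated the groups. The count ratio of miR-192-5p to miR-375 was 28.6, 18.6 and 22.3 in the untreated-titled libraries and 26.0, 27.4 and 28.8 in the ETBF-titled libraries. Untreated-titled replicate 1 lies among the ETBF-titled libraries here, so the groups overlap. The log2 ratio averaged 4.51 ± 0.31 and 4.77 ± 0.073 (SD, n = 3), a difference of 0.26 (exact permutation test, p = 0.3, or 0.75 adjusted over the 5 ratios). A larger fall of miR-375 than of miR-192-5p was therefore not shown by this test, whose smallest possible p is 0.1. The difference was 0.11 without untreated-titled replicate 2 and 0.43 without untreated-titled replicate 1.

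miR-122-5p, the defining liver miRNA, gives a second yardstick because it was abundant in these preparations and has no stated source in a colorectal line. It held 5892 ± 591.6 CPM in the untreated-titled and 4932 ± 128.9 CPM in the ETBF-titled libraries (SD, n = 3), and its log2 fold change was -0.26 (SE 0.095, edgeR adjusted p = 0.0911). The count ratio of miR-192-5p to miR-122-5p was 1.93, 1.79 and 1.70 in the untreated-titled libraries and 1.86, 1.64 and 1.71 in the ETBF-titled libraries. These values overlap, with a difference of -0.057 on the log2 scale (exact permutation test, p = 0.6, or 0.75 adjusted over the 5 ratios). The log2 ratio of miR-375 to miR-122-5p averaged -3.66 ± 0.26 and -3.98 ± 0.16 (SD, n = 3), a difference of -0.32 (exact permutation test, p = 0.2, or 0.75 adjusted over the 5 ratios), again with overlap through untreated-titled replicate 1. That difference was -0.18 without untreated-titled replicate 2. miR-192, miR-194 and miR-122 are all known in liver, and what part of the miR-192-5p and miR-194-5p counts shares a source with miR-122-5p was not tested.

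**Figure D3:**
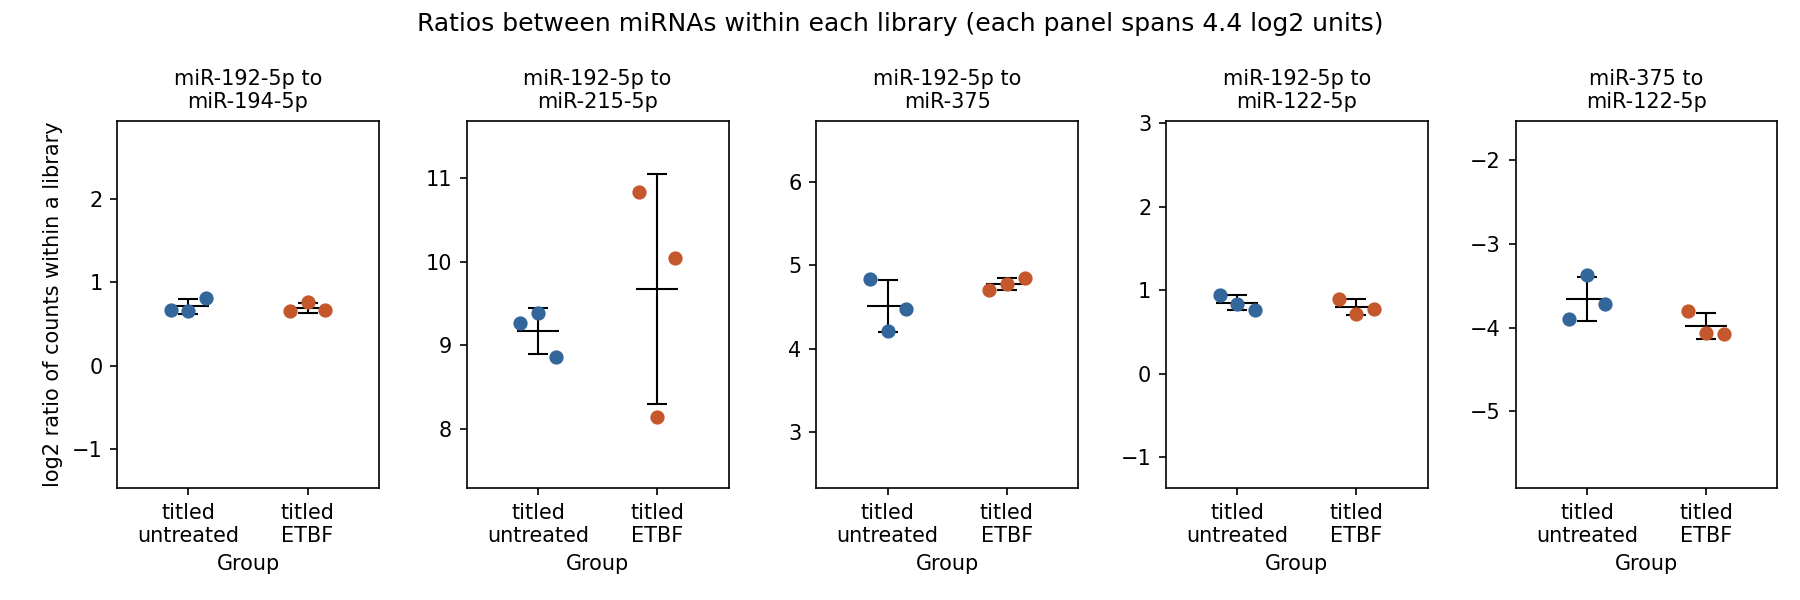
Log2 ratio of raw counts within each library (vertical axes, each panel spanning 4.4 log2 units) for 5 pairs of miRNAs, with a point per library, blue for untreated-titled and orange for ETBF-titled, and bars for the mean ± SD (n = 3). The groups overlap in every panel; the spread is narrow in both groups for miR-192-5p to miR-194-5p and to miR-122-5p, and widest in the ETBF-titled group for miR-192-5p to miR-215-5p, where 0.5 was added to counts of 1 to 7.

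The entries most like each member across the 6 libraries were found by the root mean square difference of log2 CPM, each entry centred on its own mean, among 133 other tested entries averaging at least 100 CPM. For miR-192-5p the closest was its cluster partner miR-194-5p, at 0.063 on the log2 scale, against a median of 0.23 over all 133. miR-34a-5p, a direct p53 target, followed at 0.071 and miR-30a-5p at 0.076. For miR-194-5p the closest were miR-27b-3p at 0.047, miR-30a-5p at 0.051 and miR-192-5p at 0.063. The liver miRNA miR-122-5p had rank 6 for miR-192-5p, at 0.081, and rank 25 for miR-194-5p, at 0.13. miR-375 had no such close neighbour, with the muscle miRNA miR-133a-3p at 0.21, miR-192-5p at 0.23 and miR-122-5p at 0.24, against a median of 0.38. All points come from the same 6 libraries and share their scaling. The distances also include counting noise and any difference between the groups. miR-375 had the fewest counts of the tested members, 67 to 199 per library, and the largest log2 fold change, so its larger distances are not a trait apart from these.

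Other epithelial miRNAs gave no common direction. Of 11 listed entries 9 were tested, of which 1 was higher in the libraries titled ETBF and 8 did not pass. That is close to the share over all tested entries, 10.8% higher and 3.59% lower. By edgeR, DESeq2 and limma-voom alike 0 were lower, with 2 lower at an unadjusted p under 0.05. Over all tested entries 12.8% were lower at that limit by edgeR, and 51.8% had a negative log2 fold change by TMM. Their median log2 fold change was -0.03, as over all tested entries, with 5 negative by TMM, 3 by upper-quartile scaling, 2 on liver and muscle markers and 8 by library size alone. The entry that rose was miR-7-5p, a repressor of the EGF receptor better known from neuroendocrine cells, at 2.14 (SE 0.12, edgeR adjusted p = 2.62e-06). Members of the miR-200 family, guardians of epithelial identity through repression of ZEB1 and ZEB2, had log2 fold changes from -0.17 (miR-141-3p, SE 0.19) to 0.024 (miR-429, SE 0.084), with miR-200a-3p at -0.060 (SE 0.091), miR-200b-3p at -0.030 (SE 0.085) and miR-200c-3p at 0.013 (SE 0.086) between them. All 5 were negative by library size alone, from -0.23 to -0.034, and positive on liver and muscle markers, from 0.090 to 0.28. miR-203a at -0.31 (SE 0.11, edgeR adjusted p = 0.0838) and miR-205-5p at -0.35 (SE 0.11, edgeR adjusted p = 0.0601), both of stratified epithelium, had values close to those of miR-192-5p and did not pass.

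The p53-linked miRNAs likewise had no common direction. Of 15 listed entries 10 were tested, of which 1 was higher, 1 was lower and 8 did not pass, with a median of -0.09 that turned to 0.18 on liver and muscle markers. Over all tested entries 10.8% were called higher and 3.59% lower, so these counts do not set the list apart. miR-149 rose, with a log2 fold change of 2.59 (SE 0.23, edgeR adjusted p = 8.18e-05). miR-1246, largely a fragment of the spliceosomal RNA U2, fell to 0.250 times its level (SE 0.22 on the log2 scale, edgeR adjusted p = 0.000276). miR-34a-5p had -0.30 (SE 0.16, edgeR adjusted p = 0.215), and the most abundant of the list, miR-143-3p, had -0.15 (SE 0.13, edgeR adjusted p = 0.475).

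Markers of other tissues were present in both groups. Negative log2 fold changes, the sign of the members, prevailed in the liver and muscle list and the stromal and endothelial list. They did not in the blood-cell list, which was close to the share over all entries, or in the neural and endocrine list. Over all tested entries 51.8% were negative, and 33.8% had an unadjusted edgeR p under 0.05, 12.8% in the lower direction. The liver and muscle list held 2.48% to 2.78% of the counts of untreated-titled libraries and 1.83% to 2.69% of ETBF-titled libraries, and 5 of its 7 listed entries were tested. All 5 were negative, with a median of -0.24, except when scaled on this list itself, where 1 was. By edgeR, DESeq2 and limma-voom 0 passed, and 2, in edgeR miR-122-5p and miR-133a-3p, had an unadjusted p under 0.05. The most abundant, miR-1 of muscle, had -0.20 (SE 0.11). The stromal and endothelial list held 1.51% to 1.78% and 1.12% to 1.72%, with 7 of 8 tested entries negative and a median of -0.20, which became 2 of 8 and 0.049 on liver and muscle markers. Among these 8, miR-199a-3p held 2 to 2.002 times the counts of the identical miR-199b-3p. Both had -0.20, which sets the median. These 8 are therefore not separate measurements, and the list's share can hold reads counted more than once. By each of the 3 tools 0 passed, with 2 by edgeR and 1 by the others at an unadjusted p under 0.05. The most abundant entry of this list as counted was miR-199a-3p at -0.20 (SE 0.091), a rank that may come from reads counted more than once. Blood-cell markers were sparse, at 0.0726% to 0.0764% and 0.0536% to 0.0847%, led by miR-142-5p at -0.46 (SE 0.17), with 3 of 5 tested entries negative and a median of -0.06, which became 0.013 by upper-quartile scaling. By each tool 0 passed and 1 had an unadjusted p under 0.05. Of the neural and endocrine list 3 entries were tested and miR-9-3p was higher at 3.40 (SE 0.62, edgeR adjusted p = 0.00705). It held 14.6, 16.6 and 0 CPM in the untreated-titled libraries, at or near the floor of detection, so the size of this change is uncertain. In the ETBF-titled libraries it held 90.9, 67.7 and 167 CPM, and only this group brought it past the count filter. The most abundant entry, miR-9-5p, had 0.34 (SE 0.18), and the neuronal marker miR-124-3p held 3 counts in all libraries together. When libraries were scaled on the liver and muscle markers, the log2 fold changes were -0.054 for miR-192-5p, -0.040 for miR-194-5p and -0.34 for miR-375 (edgeR adjusted p = 0.871, 0.897 and 0.163). That scaling raised the median of all tested entries to 0.22. The part of other tissues' miRNAs in the members' values was not tested beyond these numbers.

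Fragments of structural RNAs also moved with the groups. miR-7641, miR-6087 and miR-1246, which overlap such RNAs, together took 16.1% to 28.3% of the counts in untreated-titled libraries and 0.531% to 0.927% in ETBF-titled libraries, and all 3 fell, miR-7641 the most abundant with a log2 fold change of -5.18 (SE 0.28). With these 3 left out before scaling, the log2 fold changes were -0.26 for miR-192-5p, -0.24 for miR-194-5p and -0.56 for miR-375, with edgeR adjusted p of 0.0793, 0.0894 and 0.0463. The split of calls over all entries, 21 higher and 7 lower, became 30 and 4 in that setting. The 3 fragment entries are themselves among the 7 lower calls, so leaving them out takes 3 lower calls away by construction. The split was 36 and 6 with upper-quartile scaling and 50 and 3 when scaled on liver and muscle markers.

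**Figure D4:**
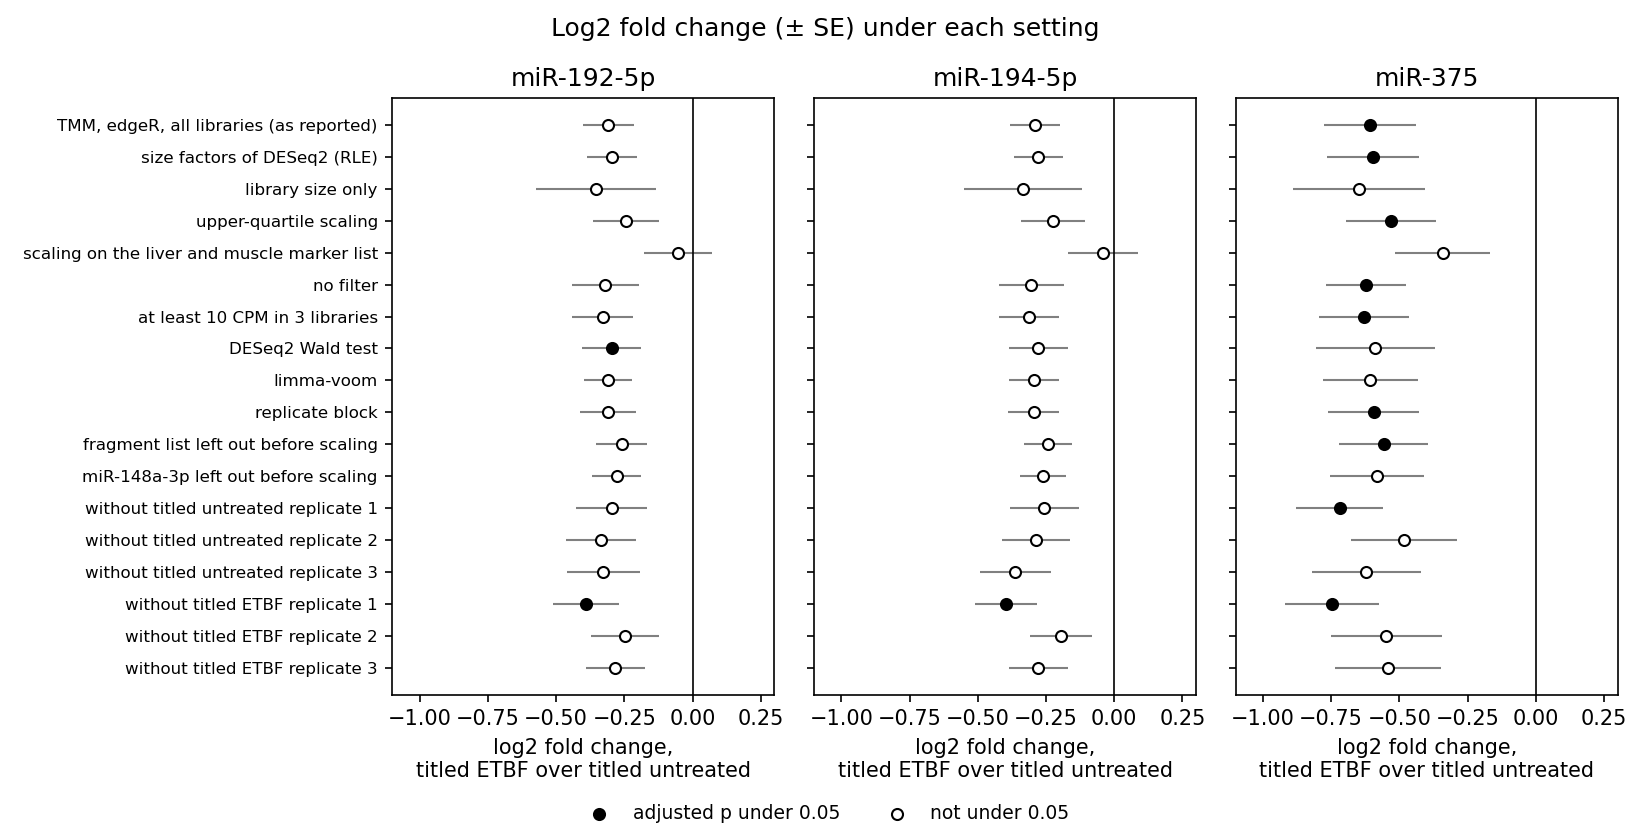
Log2 fold change, libraries titled ETBF over libraries titled untreated (horizontal axes), of the 3 tested entries under each of 18 settings (rows), with bars for ± SE and filled points where the adjusted p is under 0.05. All points lie left of 0; miR-375 is filled in 9 settings, miR-192-5p in 2 and miR-194-5p in 1, and the values nearest to 0 come from scaling on the liver and muscle markers (-0.054, -0.040 and -0.34).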

How the data were processed

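Exosomes were collected by centrifugation of conditioned medium and RNA was extracted with Trizol, per the labels' protocols, and each library was made from 100 ng. Trimmomatic, FastQC, featureCounts and the genome build GRCh37.p5 are named in the submitters' processing notes; not given in the sources used here are versions, the aligner, the miRNA annotation and the handling of multi-mapped reads. The values are raw counts per mature miRNA entry as deposited by the authors, with no normalisation. Library totals were 200207 to 417321 counts, so 3 counts correspond to 8.29 to 14.6 CPM, and such limits and the intervals below cover only counting error.

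edgeR's filterByExpr (minimum count 10) left 195 of 2575 entries, holding at least 99.6% of each library's counts. TMM factors (0.776 to 1.19) and the two-sided quasi-likelihood F-test of edgeR were applied to all tested entries, and SE was derived by dividing the size of the log2 fold change by the square root of F. Ratios were tested by exact permutation over libraries, two-sided, with 5 in the family. Groups came from sample titles. The members, lists, named entries and alternatives were chosen with earlier results of these data known. Named entries were all members with a count, the 3 most alike entries for each tested member, and in each list those past the threshold and the most abundant. Other entries named, such as abundance neighbours, miR-205-5p and the miR-200 family, were chosen after their values were seen. Alternatives changed scaling, filter, tool, replicate block or libraries.

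Replicates differed by more than sampling noise (chi-square over degrees of freedom at least 10.04) and were counted separately. The fit was tested on simulated data for this comparison (198 tested entries): 85.7% of 7 entries changed 2-fold and 100% of 12 changed 4-fold were recovered. Smaller changes were not simulated, so recovery at the sizes of miR-192-5p (1.24-fold), miR-194-5p (1.22-fold) and miR-375 (1.52-fold) is not known. Sequences are RefSeq's on GRCh38.p14, in which 6 of the 7 entries matched by name and miR-375 through its 3p strand. Versions were edgeR 4.0.16, DESeq2 1.42.0 and limma 3.58.1 in R 4.3.3, with SciPy 1.17.1 in Python 3.11.15.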

Additional observations from a re-analysis of the deposited data

How the results depend on the processing

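The log2 fold changes of miR-375, miR-192-5p and miR-194-5p kept a negative sign in all 17 alternatives each. miR-375 no longer passed with library size alone (-0.65), scaling on liver and muscle markers (-0.34), DESeq2 (-0.59), limma-voom (-0.61) or without miR-148a-3p (-0.58). Leaving out each library gave -0.75 to -0.48 for miR-375, -0.39 to -0.25 for miR-192-5p and -0.40 to -0.20 for miR-194-5p. miR-192-5p passed by DESeq2 (-0.30). The 28 calls over all entries became 53 when scaled on liver and muscle markers, 51 with no filter, 42 with upper-quartile scaling, 21 by library size alone, 25 by DESeq2 and 17 to 59 with a library left out: 17 without untreated-titled replicate 3 or ETBF-titled replicate 3, and 59 without ETBF-titled replicate 1. The cause was not tested. The share of higher calls, 75%, was 88.2% without the fragment list, 85.7% by upper quartiles, 94.3% on liver and muscle markers and 64.4% without ETBF-titled replicate 1. The first of these rises in part because the fragment list itself held 3 of the 7 lower calls.

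Differences in log2 ratio with a library left out ran from -0.049 to 0.036 for miR-192-5p to miR-194-5p, from -0.075 to 1.27 to miR-215-5p, from 0.11 to 0.43 to miR-375 and from -0.11 to -0.0097 to miR-122-5p, and from -0.44 to -0.18 for miR-375 to miR-122-5p. No ratio design here can reach p under 0.05. The replicate block gave 38 calls over all entries and -0.59, -0.31 and -0.29 for miR-375, miR-192-5p and miR-194-5p (edgeR adjusted p = 0.0371, 0.0526 and 0.0502). Deviations of same-numbered libraries correlated at 0.15, 0.080 and 0.010. Those of differently numbered libraries correlated at -0.15 to 0.083, the highest being untreated-titled replicate 2 with ETBF-titled replicate 3. With so few libraries these values do not settle whether the numbers mark pairs, and the main test did not take them as pairs. Depth limits the 4 entries with few or no counts: tested without a filter, miR-215-5p had -0.62 (SE 0.72) and miR-194-3p -0.84 (SE 0.64), and no fold change is given for miR-192-3p and miR-215-3p.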
